A study of Oryza sativa with 48 samples.

Results

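In rice seedlings, 117 of the 35667 gene identifiers counted differed at least 4-fold between the genotypes WT and aoc at every sampled hour, in the root or in the 2nd leaf. They were chosen by their own measured levels. In CPM (a gene's read count over the column total of its library, times 1e6), 0.1 was added to each group mean. The ratio of aoc over WT then had to be 4 or more, or 0.25 or less, in the same direction at 0, 1, 6 and 72 h of a tissue, with the higher genotype at 1 CPM or more each time. The root list held 66 identifiers and the leaf list 73. On both lists in the same direction stood 21, which was 31.8% of the root list and 28.8% of the leaf list, and 1 more stood on both in opposite directions. The genotype values of the tissue that chose an identifier are therefore a description. Tests are given for the lines in the other tissue and for salt within a line. For salt, the rule used the same hourly means for the level and the ratio, though not the change between hours. The shares of members called for salt are therefore given without a reading.

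The study set the salt responses of the 2 genotypes side by side. WT was the cultivar Kitaake, and the other line is labelled aoc, with neither its background nor the way it was made stated in the labels. Both lines grew for 11 days in hydroponics before 100 mM NaCl was given, and root and 2nd leaf were taken untreated (0 h) and after 1, 6 and 72 h. Each of the 16 groups had 3 libraries, each from 3 plants. An RNeasy kit served for all root RNA and Tri-Reagent for all leaf RNA, and the share of either in a root to leaf difference cannot be told apart.

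Jasmonates are lipid-derived hormones that plants make after wounding and attack and under several other stresses. AOC stands for allene oxide cyclase, the enzyme that closes the ring of their precursor in the plastid. The active hormone, jasmonoyl-isoleucine, brings the JAZ repressors to the receptor COI1 for breakdown and so frees the transcription factors that they hold back. Gene identifiers here are those of the Rice Annotation Project, which carry the chromosome and a number that rises along it. The files do not pair identifiers with gene names. The reference table at hand, which follows another assembly, held 1 of them and no member, so the members are described by identifier, level and place, and neither the gene for allene oxide cyclase nor tissue markers were analysed here.

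Root libraries totalled 28.6 M to 71.7 M counts, leaf libraries 29.9 M to 41 M. The limit that a count of 0 allows, 3 counts per library, corresponds to 0.0419 to 0.105 CPM (root) or 0.0731 to 0.1 CPM (leaf) and covers counting error only. CPM is not corrected for gene length, so levels are compared within an identifier and not between identifiers. In these bulk samples, fewer cells of a type and less RNA per cell cannot be told apart. In leaf the column totals set the median log2 ratio of all tested identifiers at -0.18, against 0 with TMM factors, and in root it was 0 under either scaling. Earlier results of these data set apart 2 leaf libraries, replicate 3 of WT at 1 h and replicate 3 of aoc at 0 h, and leaf counts are also given without them.

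The lists leaned in opposite directions in the tissues. Of the root list, 46 identifiers were higher in aoc and 20 higher in WT, and of the leaf list 25 were higher in aoc and 48 in WT. Over the 12 libraries of the higher genotype, the mean level ran from 1.28 to 406 CPM with a median of 6.00 CPM for the root identifiers higher in aoc. For those higher in WT it ran from 2.83 to 2159 CPM with a median of 9.90 CPM. In leaf the medians were 6.20 CPM for those higher in aoc and 9.01 CPM for those higher in WT. Most members were thus low, with under 10 CPM in 32, 10, 18 and 24 identifiers, in the order of the 4 lists just named. Only 3, 1, 2 and 3 reached 100 CPM.

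The size of the ratio varied widely among members. The smallest of an identifier's 4 hourly ratios was 16 or more for 14 of the 46 root identifiers higher in aoc, 3 of the 20 higher in WT, 9 of the 25 leaf identifiers higher in aoc and 9 of the 48 higher in WT. It was 64 or more for 4, 1, 3 and 2 of them. Between hours, the log2 ratio of 1 identifier moved by a median of 1.00 and 1.17 in the root identifiers higher in aoc and in WT. In leaf these medians were 0.99 and 1.69. The leaf identifiers higher in WT moved most, with 20 of 48 shifting by 2 or more on the log2 scale. At the edge of the rule, the root identifier just inside had a smallest ratio of 4.03 and the one just outside 3.98, and in leaf these were 4.09 and 3.93. In root, 16 identifiers lay between 4 and 5 and 29 that did not qualify lay between 3 and 4. In leaf these numbers were 15 and 40.

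Taken library by library, the lines were separate for many members but not for all. All 12 aoc libraries lay above all 12 WT libraries for 26 of the 46 root identifiers higher in aoc and for 21 of the 25 in leaf. The reverse held for 13 of 20 in root and 29 of 48 in leaf. Over all tested identifiers, 0.237% in root and 0.164% in leaf had every aoc library on top, and 0.191% and 0.329% every WT library, and since the rule used these values nothing is read from the comparison. Within each hour separately, all 3 libraries of the higher genotype lay above all 3 of the other at all 4 hours for 30, 20, 22 and 39 identifiers. This was every root identifier higher in WT, but left out 16 of the 46 higher in aoc. The share of all tested identifiers was not counted for single hours. The rule used these hourly values, so nothing is read from these numbers either.

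**Figure D1:**
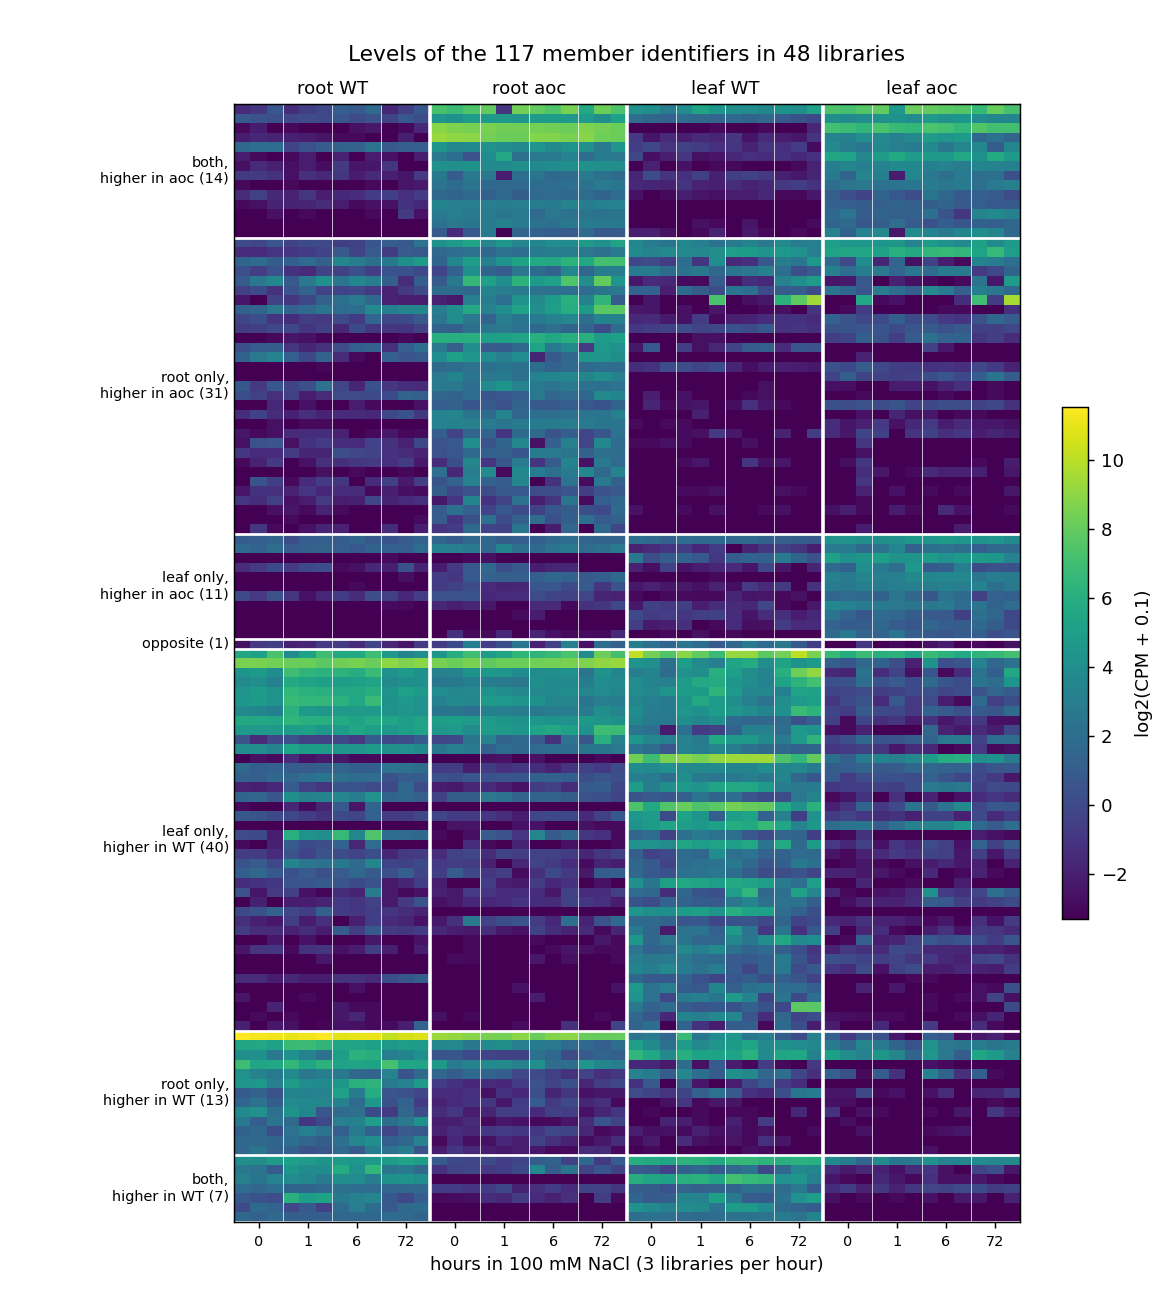
Colour gives log2(CPM + 0.1) of the 117 members (rows, grouped by list and direction, with their number) in the 48 libraries (columns, 3 per hour, in 4 blocks of tissue and genotype). The 14 identifiers higher in aoc and the 7 higher in WT on both lists keep their contrast in both tissues, whereas many of those on 1 list are dark in both genotypes of the other tissue.

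Among the 14 identifiers higher in aoc in both tissues, Os03g0115800 had an almost complete contrast. In root it lay at 296, 343 and 486 CPM (lowest, median and highest of 12 libraries) in aoc and at 0, 0.0278 and 0.229 CPM in WT, where all 12 libraries held 19 reads together. In leaf it lay at 85.4, 132 and 182 CPM in aoc and had 9 reads in the 12 WT libraries. The groups did not overlap, and the smallest hourly ratio was 1874 in root and 843 in leaf. Os07g0511400 was the other of the pair with the highest mean CPM in this set. It lay at 278, 397 and 608 CPM in aoc root and at 0, 0.0940 and 0.209 CPM in WT root. In aoc leaf it was lower, at 2.73, 11.4 and 29.45 CPM, against 0.0763, 0.225 and 0.482 CPM in WT leaf. All aoc libraries were again above all WT libraries, with a smallest ratio of 1464 in root and 11.35 in leaf.

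Of the 7 identifiers higher in WT in both tissues, Os11g0626700 was without a read in the 12 aoc root libraries. WT root held 5.46, 13.15 and 19.1 CPM, so the level in aoc was at least 1505-fold lower, with 3 counts over the 12 aoc libraries as the floor. In leaf, WT held 8.32, 51.5 and 136 CPM, and aoc 0, 0.0620 and 0.323 CPM, with 33 reads spread over 10 of its 12 libraries. The aoc libraries thus lay at or near the floor in both tissues. Os03g0426350 differed in degree only. It lay at 15.9, 25.9 and 40.8 CPM in WT root against 0.472, 0.949 and 2.99 CPM in aoc root. In leaf it lay at 42.9, 70.1 and 95.5 CPM in WT against 2.78, 10.8 and 18.3 CPM in aoc. No aoc library reached a WT library, and the smallest ratio was 14.1 in root and 5.13 in leaf.

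**Figure D2:**
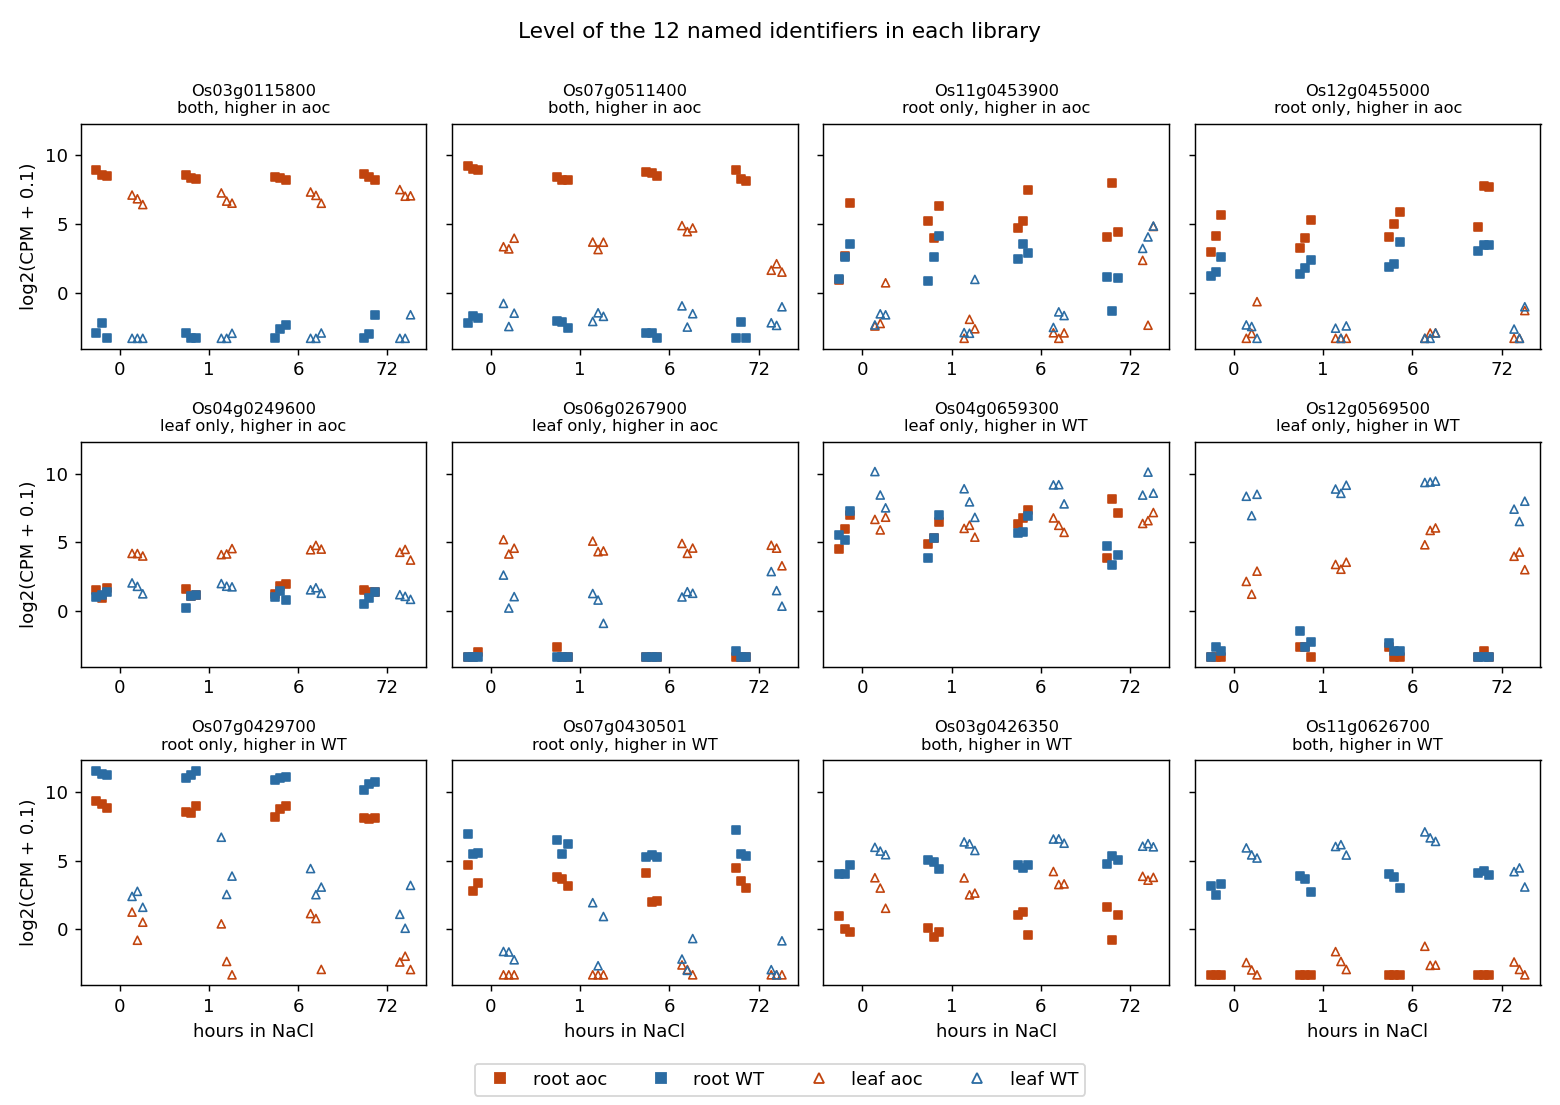
Each panel plots log2(CPM + 0.1) of 1 identifier against hours in NaCl, with 1 symbol per library (filled squares root, open triangles leaf, orange aoc, blue WT). Os03g0115800 and Os07g0511400 show aoc far above WT in both tissues. For Os04g0249600 and Os04g0659300 the lines are apart within each hour in leaf, and their ranges over all hours overlap in root. For Os04g0659300 the ranges over all hours overlap in leaf too.

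The contrast of several members was nearly all or none. Of the 56 identifiers higher in aoc, 7 had under 10 reads over the 24 WT libraries of both tissues, and 1 of these had no WT read against 4070 in aoc. Of the 60 higher in WT, 4 had under 10 reads over the 24 aoc libraries. No aoc read was counted for 3 of these 4, against 3238 to 10769 reads in WT. WT libraries held 843 M reads in all and aoc libraries 774 M. In the whole table no other identifier without an aoc read had as many WT reads as these 3.

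The members lay on all 12 chromosomes, unevenly. Chromosome 4 carried 18 of them (15.4% of the members, against 8.85% of all identifiers), chromosome 7 carried 16 (13.7% against 7.65%) and chromosome 11 carried 13 (11.1% against 6.37%). Chromosome 5 carried 2 (1.71% against 8.02%). With at most 5 other identifiers between neighbours, 29 of the 117 members (24.8%) formed 12 runs, 9 of them pairs. In each of the 12 runs all members were higher in the same line. How often other identifiers that differ between the lines form such runs, or share a direction in them, was not counted. A run of 3 on chromosome 7, which holds Os07g0511400, had 184265 reads in aoc and 152 in WT. A run of 3 successive identifiers on chromosome 3 was higher in WT in leaf, with 96608 WT reads against 14526 in aoc over both tissues.

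The longest run lay on chromosome 11 and held 5 members among 8 successive identifiers, Os11g0626700 being the fourth member. Its members had 50897 reads in WT and 35 in aoc, and 3 of the 5 had none in aoc. These 3 are the silent identifiers described above. The other 3 identifiers of the stretch stayed under 1 CPM on average in both lines and tissues and were tested in neither, so they do not show whether the contrast breaks off between members. All 5 members were on the leaf list and 3 on the root list. The 2 on the leaf list alone had 437 and 226 reads in WT root and none in aoc root.

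**Figure D3:**
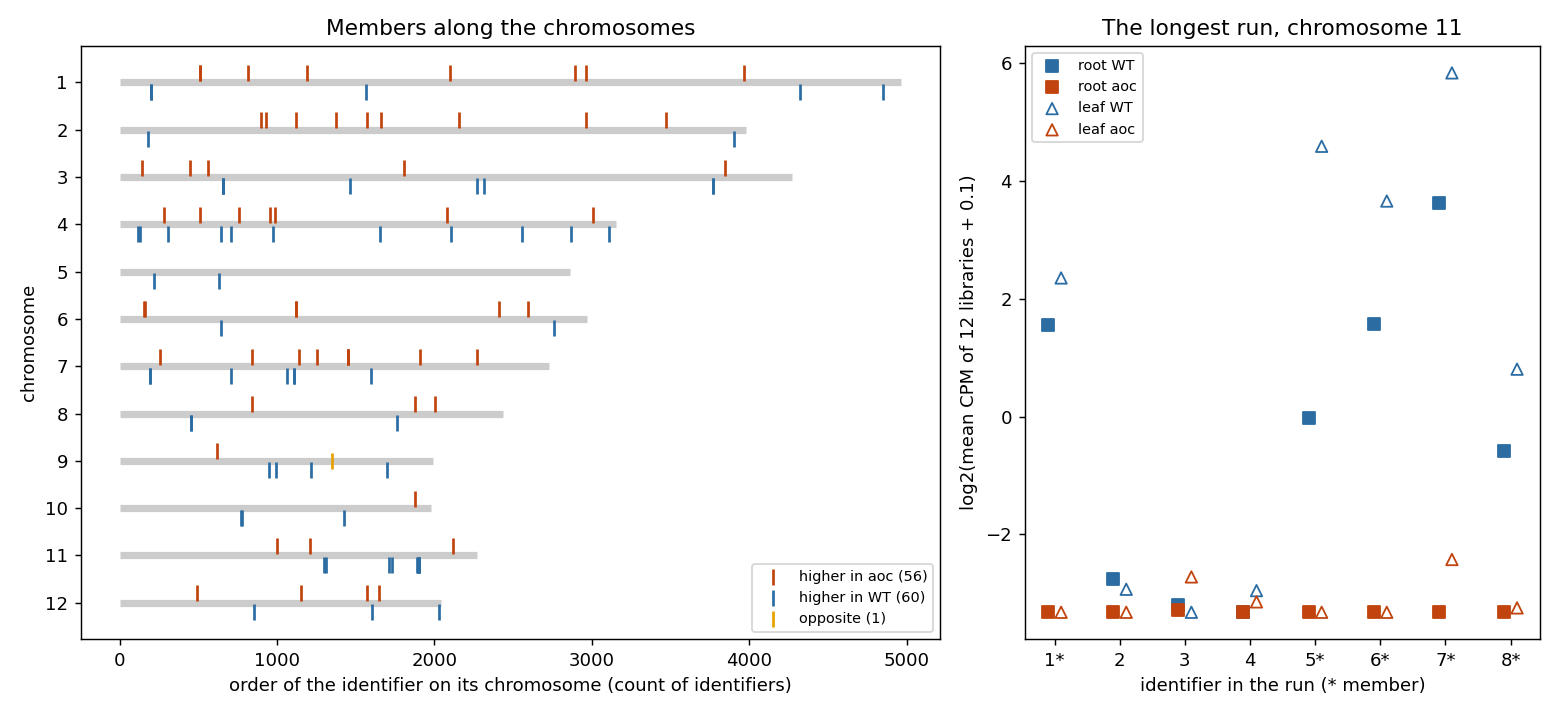
Left, members are marked by their order on each chromosome (bars, 1 per chromosome, length in identifiers), orange above the bar where higher in aoc and blue below where higher in WT. Right, log2(mean CPM + 0.1) of the 8 identifiers of the chromosome 11 run, where the 5 members (starred) are raised in WT and lie near the bottom in aoc.

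Most identifiers end in a number that is a multiple of 100. Of the identifiers higher in aoc, 12 of 56 (21.4%) had a number between these steps, against 5 of 60 (8.33%) of those higher in WT and 9.82% of the 27260 identifiers tested in either tissue. This is given as a description.

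Whether an identifier chosen in 1 tissue also differed between the lines in the other was tested on libraries that had no part in its choice. The mean of aoc minus WT over the 4 hours was tested (edgeR quasi-likelihood, Benjamini-Hochberg adjusted over all identifiers of the tissue). Of the 46 root identifiers higher in aoc, 24 were called higher in aoc in leaf too, where 9.45% of 24317 tested identifiers were. Of the 20 higher in WT in root, 13 were called higher in WT in leaf, against 8.44% of all. Of the 25 leaf identifiers higher in aoc, 19 were called so in root, against 10.1% of 26195, and of the 48 higher in WT, 26 were, against 10.4%. In either direction, 17.9% of all were called in leaf and 20.6% in root. The total of 37 for the root list stayed at that number without the 2 leaf libraries set apart.

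Low counts limit these numbers. Of the members, 16, 6, 4 and 11 of the 4 lists, in the same order, were too low in the other tissue to be tested. Others passed only because the line in which they were high carried them. Some members also reached the filter in the other tissue with only the line that was lower where they were chosen. Among these, the same direction was called for 13 of 19 root identifiers higher in aoc and 6 of 7 higher in WT. For the leaf lists this held for 7 of 9 higher in aoc and 18 of 28 higher in WT. The opposite direction was called for 2 of the 19 and 3 of the 28, and there that line was the higher one. The share among all identifiers under the same restriction was not counted. The shares given above are of all tested identifiers, a wider set. In 28 of the 66 root identifiers (42.4%) neither line reached a mean of 1 CPM in leaf, and in 30 of the 73 leaf identifiers (41.1%) neither did in root. Over all members, tested or not, the median log2 ratio in leaf was 1.04 for the root identifiers higher in aoc and -2.20 for those higher in WT. In root it was 3.56 and -1.13 for the leaf identifiers. These medians lie beside -0.18 and 0 for all tested identifiers of leaf and root.

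**Figure D4:**
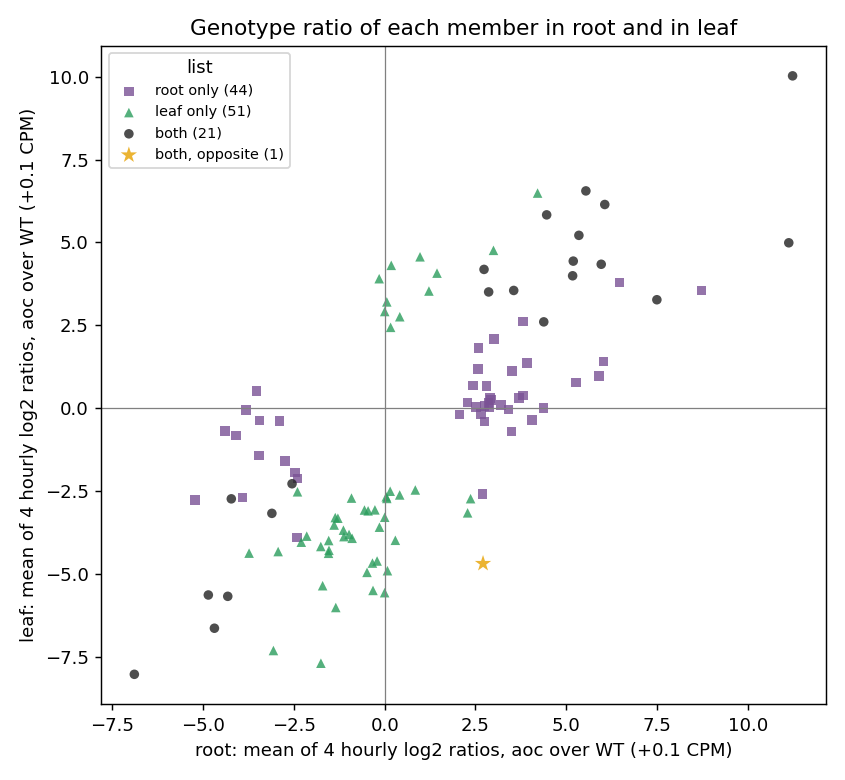
For each of the 117 members, the mean of its 4 hourly log2 ratios of aoc over WT (0.1 CPM added) in leaf is plotted against that in root, with the symbol giving the list. Members on both lists lie in the corners of equal sign except the star, and many members of 1 list lie near 0 on the other axis.

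Os07g0429700, on the root list only, lay at 1152, 2146 and 2988 CPM in WT root and at 263, 398 and 643 CPM in aoc root, with no overlap. In leaf it lay at 0.949, 6.18 and 104 CPM in WT and at 0, 0.315 and 2.27 CPM in aoc. There the mean difference was -4.10 ± 0.66 on the log2 scale (SE; edgeR adjusted p = 0.000272), although its smallest ratio of 3.44 kept it off the leaf list. Its neighbour Os07g0430501 lay at 38.6, 44.2 and 149 CPM in WT root against 3.94, 10.7 and 26.0 CPM in aoc root. In leaf it had 232 reads in the 12 WT libraries and 3 in the 12 aoc libraries, and it passed the count filter there through WT alone, so no test is given.

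The 2 identifiers with the highest mean CPM among those higher in aoc on the root list only overlapped between the lines. Os11g0453900 lay at 1.775, 31.0 and 253 CPM in aoc root and at 0.293, 5.605 and 17.3 CPM in WT root, and 8 of the 12 aoc libraries lay above every WT library. In leaf its mean difference was -1.12 ± 0.92 on the log2 scale (edgeR adjusted p = 0.458). Os12g0455000 lay at 7.71, 30.0 and 216 CPM in aoc root and at 2.25, 4.57 and 12.7 CPM in WT root, with 10 of 12 aoc libraries above all of WT. It was too low in leaf to be tested, with 30 aoc and 26 WT reads.

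Among the identifiers on the leaf list only, Os12g0569500 lay at 91.45, 370 and 701 CPM in WT leaf and at 2.23, 11.0 and 65.9 CPM in aoc leaf. It had 27 reads in WT root and 7 in aoc root and was not tested there. Os04g0659300 lay at 113, 365 and 1136 CPM in WT leaf and at 41.4, 79.1 and 143.5 CPM in aoc leaf, where 11 of 12 WT libraries lay above all of aoc. In root it was at 10.3, 42.5 and 154 CPM in WT and 14.2, 84.4 and 287.5 CPM in aoc, a mean log2 difference of 0.83 ± 0.44 (edgeR adjusted p = 0.200). The mean over the 4 hours was thus called in neither direction in root. The hourly log2 ratios there were -0.14, -0.18, 0.63 and 3.06 at 0, 1, 6 and 72 h, given here without a test. At 72 h its aoc root libraries held 14.2, 287.5 and 142 CPM, against 25.8, 10.3 and 16.7 CPM in WT root.

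Os06g0267900 lay at 9.68, 23.7 and 36.5 CPM in aoc leaf and at 0.435, 2.135 and 7.21 CPM in WT leaf, without overlap. In root it had 3 reads in aoc and 1 in WT. Os04g0249600 lay at 12.95, 18.7 and 27.3 CPM in aoc leaf and at 1.696, 2.97 and 4.02 CPM in WT leaf. In root the lines overlapped, at 1.82, 2.64 and 3.79 CPM in aoc and 1.04, 1.99 and 2.62 CPM in WT. The root difference of 0.43 ± 0.14 on the log2 scale had an adjusted p of 0.0408 (edgeR). The call was lost in 15 of 28 alternatives, each the loss of 1 root library, with differences of 0.36 to 0.49 over all 28. Those libraries were aoc 0 h replicates 1 and 3, 1 h replicate 1, 6 h replicates 2 and 3 and all 3 of 72 h, and WT 0 h replicates 1 and 2, 1 h replicate 1, 6 h replicates 1 and 3 and 72 h replicates 1 and 2.

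The lines differed in opposite directions in root and leaf for 4 identifiers, singled out after their values were seen. Os09g0491100 is the 1 on both lists. In root it lay at 0.0672, 0.989 and 8.90 CPM in aoc and at 0.0591, 0.343 and 0.683 CPM in WT. In leaf it lay at 0, 0.0152 and 0.410 CPM in aoc and at 0.555, 3.64 and 7.59 CPM in WT. The leaf libraries did not overlap and the root libraries did, with 8 of the 12 aoc libraries above all of WT. Os01g0561600, on the root list as higher in aoc, had 351 reads in WT leaf and 22 in aoc leaf. It passed the count filter in leaf through WT alone, so no test is given. Os04g0319700 and Os11g0592200, on the leaf list as higher in WT, were higher in aoc in root, by 2.80 ± 0.68 and 2.39 ± 0.56 on the log2 scale (edgeR adjusted p = 0.00659 and 0.00523). WT root, the lower line there, held 102 and 417 reads of them. In root the ranges of the 2 lines overlapped for all 4 identifiers. The difference between the tissues was not itself tested, since the rule chose the members by 1 side of it.

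Some members differed widely between replicate numbers. For 12 of the 46 root identifiers higher in aoc (26.1%), the replicate numbers differed by over 2 on the log2 scale on average over the 4 hours, and replicate 3 was the highest in 11 of them. Of the 21234 identifiers at 1 CPM or more at every hour in aoc root, 0.518% differed that much. The members were chosen by means of 3 libraries, which a single high library can lift past the ratio, so this share is given beside theirs without a reading. Among the 12 are Os03g0153900 and Os06g0685400, lowest in replicate 2, whose average takes in the low aoc 1 h library described below. The same number was the highest at all 4 hours in 6 of the 46 (13.0%, against 11.4% of tested identifiers), and this was number 1 in 5 of them and number 3 in 1. In the other lists, replicate numbers differed by over 2 in 1 of 20 in root for WT (0.0997% of all). In leaf they did in 1 of 25 for aoc (1.25%) and 6 of 48 for WT (12.5%, against 0.607%). In 5 of these 6, replicate 1 was the highest. The same number was the highest at all 4 hours in 2 of 20, 9 of 25 (36%) and 3 of 48 members of these lists. Of tested identifiers, 11.7%, 10.3% and 7.32% had this, and these shares too are given without a reading. Os09g0491100 shows the wide difference between replicate numbers, with aoc root levels of 0.490, 0.910 and 8.40 CPM in replicates 1, 2 and 3 at 0 h. At 6 h these levels were 0.1555, 0.737 and 8.90 CPM, but at 72 h they were 0.0672, 3.905 and 2.22 CPM.

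The make-up of the lists changed when replicate numbers were left out. With replicate number 3 left out of all 8 root groups, 30 of the 46 root identifiers higher in aoc still met the rule, against 39 without number 1 and 37 without number 2. Of the 20 root identifiers higher in WT, 16, 14 and 16 remained without numbers 1, 2 and 3. In leaf, 22, 24 and 24 of the 25 higher in aoc and 31, 37 and 45 of the 48 higher in WT remained. With single libraries left out in turn, 32 of the 66 root identifiers and 47 of the 73 leaf identifiers met the rule every time. The labels do not say what a replicate number stands for, and its part in the contrast of the lines was not tested.

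**Figure D5:**
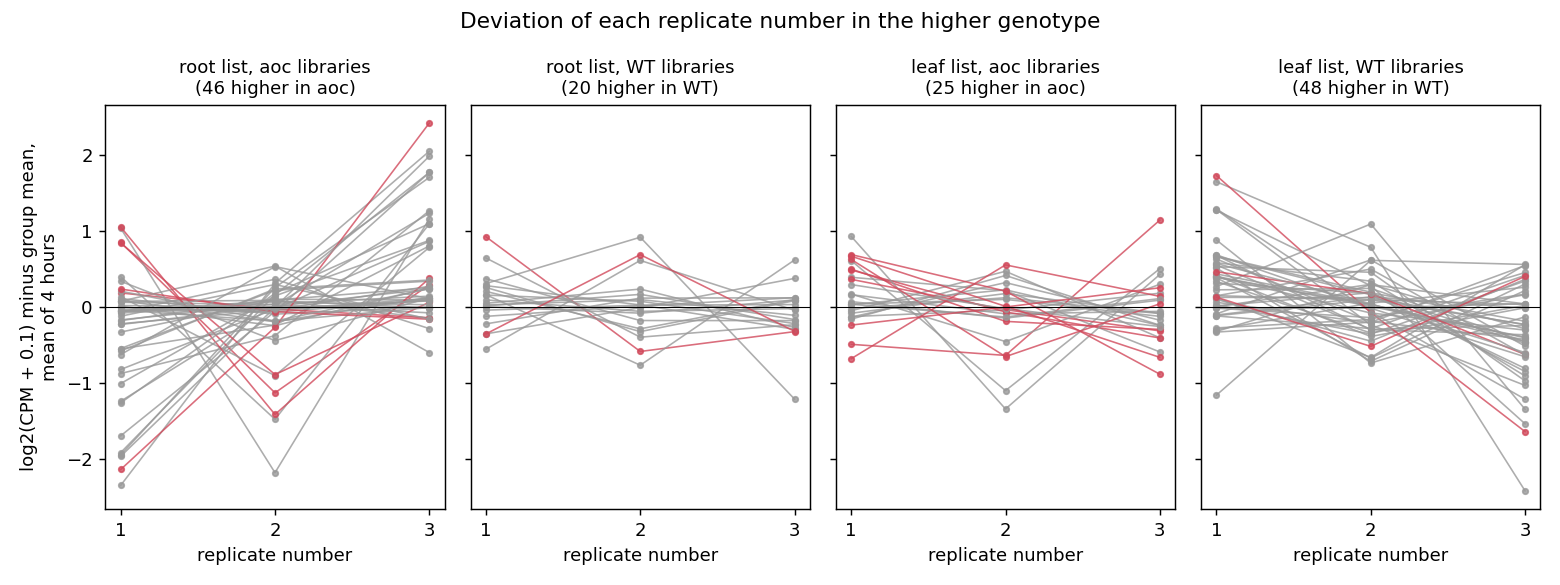
Each line is 1 member of a list; the vertical axis is its log2(CPM + 0.1) minus the mean of its group, averaged over the 4 hours, for each replicate number of the line in which it is higher (red where the same number was the highest at all 4 hours). In aoc root many members lie highest in replicate 3, and 12 of 46 spread by over 2, against 1 of 20 in the WT libraries of the root list.

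A single pair of aoc libraries left the pattern of its line for some members. In the aoc 1 h replicate 2 libraries of both root and leaf, 3 of the 14 identifiers higher in aoc on both lists lay within the range of WT. These 3, chosen after their values were seen, are Os03g0153900, Os01g0207300 and Os06g0685400. Os03g0153900 had 0.388 CPM in that root library, where the other 11 aoc root libraries lay at 53.0 to 357 CPM and WT root at 0.206 to 3.25 CPM. In the leaf library of the same hour and number it had 24.35 CPM, where the other 11 aoc libraries lay at 100.2 CPM or more and WT leaf at 7.47 to 40.5 CPM.

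Os01g0207300 had 0.129 CPM in both libraries, against at least 1.89 CPM in the other 11 aoc root libraries and at least 1.13 CPM in the other 11 of leaf. Os06g0685400 had no read in the root library and 3 reads in the leaf library, and its aoc medians were 1.87 CPM in root and 10.02 CPM in leaf. The remaining 11 of the 14 identifiers lay at 0.740 to 7.82 times their aoc median in the root library and at 0.756 to 1.825 times in the leaf library. Os03g0115800, for instance, had 325 CPM in root and 102 CPM in leaf, 0.948 and 0.772 of its aoc medians. No other aoc library lay within the WT range for any of the 14, in either tissue. Members on only 1 list were not looked at in this way. Os06g0658400, on the root list only, had 0.0324 CPM in its lowest aoc root library. Its aoc root median was 6.71 CPM and its highest WT root value 0.0558 CPM. The labels do not say whether root and leaf libraries of the same hour and number came from the same plants.

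Salt responses were tested within the line and tissue in which a member was high. A test of 1, 6 and 72 h together against 0 h (edgeR quasi-likelihood, adjusted p under 0.05) called 11 of the 46 root identifiers in aoc root, where 58.3% of all were called. It called 5 of the 25 leaf identifiers in aoc leaf, against 51.9%. Of the members higher in WT, 13 of 20 were called in WT root (59.4% of all) and 23 of 48 in WT leaf (52.3%). Without the 2 leaf libraries set apart, the numbers in leaf were 5 in aoc and 17 in WT. Without aoc 72 h replicate 2 or 3, the number in aoc leaf was 3. DESeq2 called 17 in aoc root. Members are mostly low in counts and had to reach 1 CPM at each hour, which bears on these shares, and no untreated plants were taken at 1, 6 or 72 h.

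By hour, 6 of the 20 root identifiers higher in WT were called higher in WT root at 1 h (17.5% of all) and 7 at 6 h (13.0% of all). None was lower at either hour, and the other 14 and 13 were not called. All identifiers were lower at these hours in 16.5% and 11.9%. At 72 h, 1 was higher (9.19% of all) and 2 were lower (9.73%). Their median log2 change was 0.12, 0.70 and -0.02 at 1, 6 and 72 h, beside -0.03, 0.01 and 0.03 for all. In aoc root, 3 of the 46 were higher and 2 lower at 1 h (18.1% and 16.6% of all). The same numbers, with 16.7% and 16.6% of all, were found at 6 h, and 3 higher and 1 lower (9.46% and 10.3%) at 72 h. Their medians were -0.13, -0.08 and -0.11. In WT leaf, 1 of the 48 was higher and none lower at 1 h, where 0.818% and 0.461% of all were. At 6 h, 5 were higher and 3 lower (15.6% and 13.6%), and at 72 h 6 were higher and 7 lower (15.0% and 13.6%). In aoc leaf none of the 25 was called at 1 h (0.325% higher and 0.329% lower of all). At 6 h 1 was lower (15.9%) and none higher (19.6%), and at 72 h 4 were lower (14.8%) and none higher (15.7%).

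Among the named identifiers, Os03g0115800 was not called for salt in aoc. Its aoc root mean was 409 CPM at 0 h and 338, 322 and 347 CPM at 1, 6 and 72 h, and its adjusted p over the 3 hours was 0.436 in root and 0.939 in leaf (edgeR). Os07g0511400 fell in aoc root at 1 h, from 541.5 ± 59.3 to 313 ± 26.7 CPM (SD, n = 3; log2 change -0.73 ± 0.21, SE; edgeR adjusted p = 0.0120). Its aoc leaf libraries went from 10.1, 9.02 and 15.5 CPM at 0 h to 3.01, 4.21 and 2.73 CPM at 72 h (log2 change -1.96 ± 0.45; edgeR adjusted p = 0.00382). The 72 h libraries all lay under the 0 h libraries.

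Os11g0626700 went up and then down in WT leaf. Its libraries held 60.5, 42.4 and 36.2 CPM at 0 h, 136, 100.5 and 84.0 CPM at 6 h and 18.2, 22.0 and 8.32 CPM at 72 h. The log2 change was 1.11 ± 0.36 at 6 h and -1.61 ± 0.37 at 72 h (edgeR adjusted p = 0.0267 and 0.00476). Its aoc libraries stayed at or under 0.323 CPM at all of these hours. Os07g0429700 fell in WT root from 2639 ± 312.5 to 1463 ± 288 CPM at 72 h (SD, n = 3; log2 change -0.87 ± 0.19; edgeR adjusted p = 0.00577). Os12g0455000 rose in aoc root from 25.0 to 149 CPM at 72 h (log2 change 2.50 ± 0.77; edgeR adjusted p = 0.0288). It was no longer called without aoc 0 h replicate 1 or 2, without aoc 72 h replicate 2 or 3, and with only aoc libraries in the fit.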

How the data were processed

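RNA of root and 2nd leaf was sequenced as paired 150-base reads in 48 libraries, 24 per tissue. The authors deposited 1 table of raw read counts per gene identifier, and all 48 columns were used. Per the submitters' processing notes, fastp, HISAT2, DESeq2 and the build IRGSP-1.0 were used, without versions. The sources used here name no counting tool, strand setting or annotation release, so reads shared by paralogs, overlapping or antisense genes cannot be told apart. Of the identifiers, 3032 had no read. The members and all lists were chosen with earlier results of these data known.

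Counts were fitted per tissue with edgeR 4.0.16 in R 4.3.3 (TMM, filterByExpr, robust quasi-likelihood fit over 8 groups), after a check on simulated data. The filter left 26195 root and 24317 leaf identifiers. The SE is the log2 change over the root of F. Alternatives were RLE factors, no count filter, DESeq2 1.42.0, the replicate number as a block, fewer groups, and leaving out each library. Named identifiers were the 2 of each list and direction with the highest mean CPM, and the 1 on both lists in opposite directions. Same-numbered WT and aoc libraries deviated together in root (r = 0.128 to 0.528 over 12 pairs, across genes). In leaf r was over 0.1 in 10 of 12 pairs and ran from 0.0104 to 0.795, with 0.596, 0.598 and 0.795 at 72 h. Every pair was over 0.1 in root only, so the numbers count as pairs there, while some leaf pairs deviated together more strongly. The main fits left the pairing out in both tissues, and the replicate block is among the alternatives. The labels call each library a biological replicate of 3 plants.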

Additional observations from a re-analysis of the deposited data

How the results depend on the processing

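The root list of 66 ranged from 50 to 69 when single libraries were left out, lowest without aoc 0 h replicate 3, and the leaf list of 73 from 65 to 83. Without the 2 leaf libraries set apart, the leaf list held 86 identifiers, and 4044 identifiers were called between the lines in leaf. With 1 CPM added in place of 0.1 the lists shrank to 28 and 27, and TMM factors gave 66 and 65 (65 and 63 of them members). The larger added value pulls the ratios of low identifiers towards 1. Chosen after seeing the data, leaving out replicate number 1, 2 or 3 throughout gave 69, 56 and 49 in root and 59, 67 and 92 in leaf. Leaving out single libraries gave 37 to 39 for the root list in leaf (37 as reported) and 43 to 45 for the leaf list in root (45), and 4621 to 5798 and 3568 to 5366 for all calls between the lines in root (5393) and leaf (4352). For salt it gave 11 to 14 in WT root (13), 8 to 13 in aoc root (11), 17 to 25 in WT leaf (23) and 3 to 5 in aoc leaf (5), where the lowest came without aoc 72 h replicate 2 or 3. DESeq2 called 17 in aoc root, and the cause was not tested. With the replicate block, the root counts were 45 for the leaf list, 14 for salt in WT and 16 for salt in aoc, and 6493 in all; it moved no count of calls by over 1.5 times. The other alternatives left every count within 1.5 times of its value. Of the named identifiers, none changed direction, and Os11g0626700 in WT root at 72 h (log2 change 1.08, adjusted p = 0.0420, edgeR) lost its call in 8 of 29 settings (0.88 to 1.24 over all), without any 1 of the WT root libraries of 0 h or 72 h or replicate 2 of 1 h or 6 h. Depth limits what can be said of members near the floor in the lower line.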
